A study of Mus musculus with 12 samples.

Results

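Transcripts of 9 genes of the TGF-beta pathway were followed in mouse pre-iPSCs: the ligands Tgfb1, Tgfb2 and Tgfb3, the receptors Tgfbr1, Tgfbr2 and Tgfbr3, and Ctgf, Smad7 and Thbs1, which are standard targets of the pathway. They were chosen by symbol, with earlier results of these data known, and all 9 were found among the 20325 genes measured. A pre-iPSC line consists of partly reprogrammed cells that have stalled before pluripotency. The line used here was picked as a colony without GFP from fibroblasts that carried a Nanog-GFP reporter and had been transduced with pMX retroviruses for Oct4, Sox2, c-Myc and Klf4, so all values describe a single derived line. The cells were kept on irradiated feeders and treated for 48 h without them, in ESC medium, under 4 conditions: DMSO as the control; 50 μg/ml ascorbic acid (AA); 2i, which paired a MEK inhibitor at 1 μM with a GSK inhibitor at 3 μM; or both, AA+2i. RNA was taken on day 2 in 12 libraries, 3 biological replicates (A, B and C) for each condition.

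TGF-beta ligands are secreted bound to a latency peptide and are released outside the cell. The active ligand binds the type II receptor, encoded by Tgfbr2, which then recruits and phosphorylates the type I receptor, encoded by Tgfbr1, and this kinase activates Smad2 and Smad3. The pathway is known as a driver of the mesenchymal state of fibroblasts, and blocking it is known to help mouse cells reprogramme.

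Sequencing depth, as the sum of expected counts, ranged over the libraries from 16173322 to 54392719, around a median of 21854761. All 9 genes had at least 10 counts in at least 3 libraries and were among the 13400 genes tested. The lowest count of a member was 7, for Tgfbr3, and only that gene had fewer than 10 counts in any library, so its values are the least precise. DMSO A and AA A stood apart from the other libraries in how their counts varied with transcript GC. At the GC content of Smad7, 59.2%, the curve fitted to DMSO A lay at -1.53 log2 units from the average library and that of AA A at -1.31, with 9 others between -0.49 and 0.76 and AA+2i C at 1.01. At the GC content of Tgfb2, 47.5%, the span between libraries ran from -0.28 to 0.38, and at that of Tgfbr2, 49.7%, from -0.13 to 0.15. Results for Tgfb1 (58.2% GC), Smad7 and Tgfbr1 (43.4% GC) therefore rest on values in which this dependence is large.

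The label of the cells was checked against markers. Of 10 pre-iPSC and pluripotent markers, 8 had a mean of at least 1 TPM with DMSO. Among these, Cdh1, Epcam, Pou5f1 and Sall4, genes of epithelial and pluripotent cells, were above 20 TPM in every library. Reads of Pou5f1 may be shared with its retroviral copy. Lin28a and Zfp42 were low with DMSO, at means of 1.49 and 2.37 TPM. Esrrb was at a mean of 0.23 TPM with DMSO, and Fut4 did not exceed 0.12 TPM in any library. TPM scales each library to the same total and takes account of transcript length, so genes can be compared with each other. Nanog was between 2.93 and 7.14 TPM with DMSO and between 31.73 and 40.92 with AA+2i. Of 12 markers of fibroblasts or feeders, 4 had a mean of at least 1 TPM with DMSO. These were Thy1 (5.13), Prrx1 (3.13), Fbln5 (1.5) and Col1a2 (1.27), while Lum was at 0 in every library. Of 5 blood and macrophage markers, Cd68 was between 9.56 and 28.66 TPM in every library, Csf1r did not exceed 0.34 TPM, and Ptprc, Emr1 and Tyrobp did not exceed 0.03. Of 5 endothelial markers, Tek was between 2.71 and 15.95 TPM, while Tie1 and Emcn did not exceed 0.01.

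Levels with DMSO spanned a wide range. Ctgf, a matricellular protein, was the highest at 151 ± 29 TPM (SD, n = 3), above 94.3% of all genes. Tgfbr2 came next at 42.2 ± 4.8 TPM. Thbs1, Tgfbr1 and Tgfb2 followed at 12.3 ± 4.3, 9.83 ± 3.4 and 9.35 ± 4.0 TPM, and these neighbours did not differ beyond their spread. Tgfb1 was at 4.10 ± 1.7 TPM, Smad7 at 1.94 ± 0.45, Tgfb3 at 0.97 ± 0.41 and Tgfbr3 at 0.40 ± 0.31. The SDs of Tgfb3 and Tgfbr3 overlapped, and so did those of Tgfb2 and Tgfb1. The type II receptor was thus the most abundant receptor transcript, and Tgfb2 the most abundant ligand transcript in DMSO A and DMSO B but not in DMSO C, where Tgfb1 was at 4.96 TPM and Tgfb2 at 4.79.

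**Figure D1:**
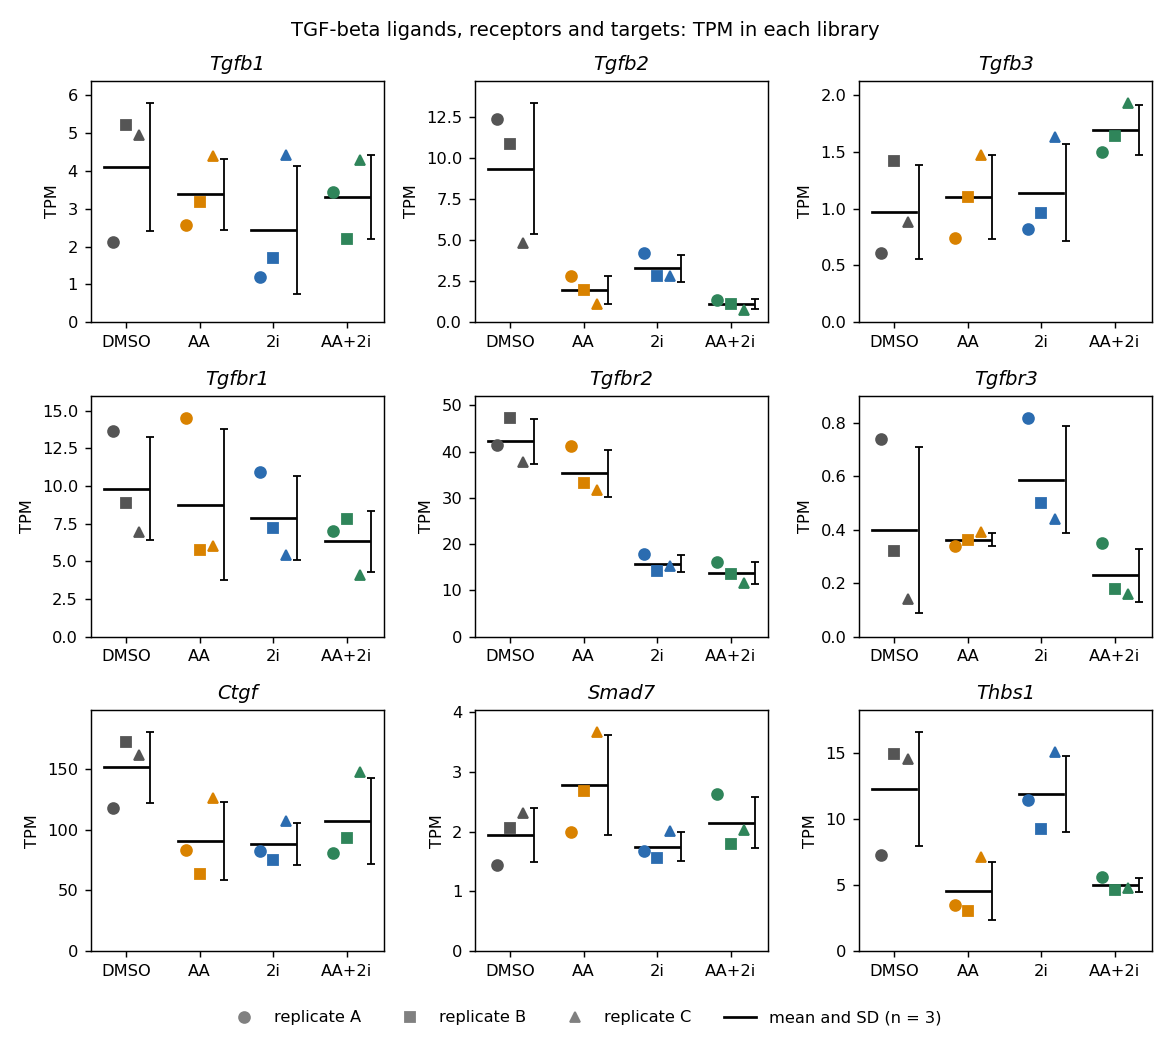
Each panel plots the TPM (linear axis from 0) of a gene in the 12 libraries by condition, with the replicate shown by the symbol and the mean and SD of 3 libraries by the line and bar. Tgfb2 lies lower in all 9 treated libraries than in any DMSO library, and Tgfbr2 lies between 11.51 and 17.82 TPM in the libraries with 2i and between 31.60 and 47.36 in those without.

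Each treatment was compared with DMSO to ask what it did to the pathway on its own, and AA+2i with each agent to ask what the other added. Of the 9 members, 1 fell with AA (Tgfb2) and none rose. Over all genes tested, 1.34% were called with AA in either direction, 0.866% higher and 0.47% lower, by edgeR's quasi-likelihood test with a Benjamini-Hochberg adjusted p under 0.05. With 2i, 1 member fell (Tgfbr2), beside 4.42% of all genes called, 1.59% higher and 2.83% lower. With AA+2i both of these fell, which is 2 of 9 members, beside 8.34% of all genes called, 3.93% higher and 4.41% lower. The median log2 fold change of the 9 members was -0.23 with AA, -0.17 under 2i and -0.47 under AA+2i, where the medians of all genes were -0.01, -0.02 and -0.02. These 3 comparisons share the DMSO libraries.

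**Figure D2:**
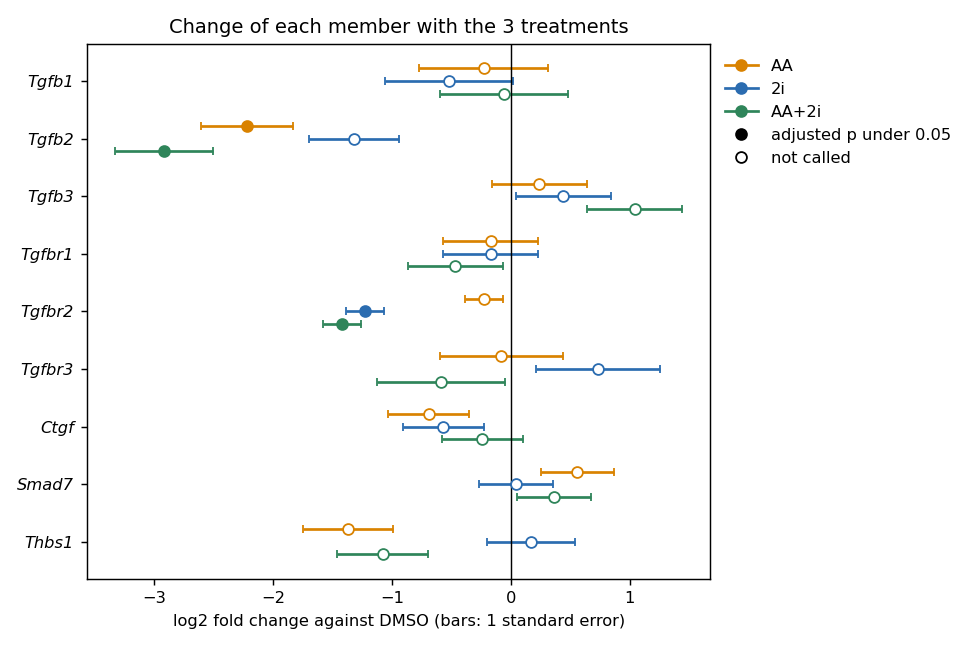
The log2 fold change of each member against DMSO is plotted with a bar of 1 standard error for AA, 2i and AA+2i, and filled points are those with an adjusted p under 0.05 by edgeR's quasi-likelihood test. The 4 filled points are Tgfb2 with AA (-2.22) and AA+2i (-2.92) and Tgfbr2 with 2i (-1.23) and AA+2i (-1.42).

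Because Tgfb2 and Tgfbr2 are the members that fell, the DNA around their start sites is shown, as RefSeq gives it (250 bases before the start to 50 after, table of the GRCm38.p6 build). Both sequences were matched exactly once in mm9, the build of the deposited values. Tgfb2 lies at chr1:188447065-188529871 on the minus strand, and its promoter at chr1:188529819-188530118. Tgfbr2 lies at chr9:115993415-116084383 on the minus strand, and its promoter at chr9:116084432-116084731. The gene bounds are from GENCODE and the windows are set on RefSeq starts, and the Tgfbr2 window lies wholly outside the gene bounds. Offsets given below are from the RefSeq start site. Capitals mark matches to the motifs searched.
Tgfb2 promoter: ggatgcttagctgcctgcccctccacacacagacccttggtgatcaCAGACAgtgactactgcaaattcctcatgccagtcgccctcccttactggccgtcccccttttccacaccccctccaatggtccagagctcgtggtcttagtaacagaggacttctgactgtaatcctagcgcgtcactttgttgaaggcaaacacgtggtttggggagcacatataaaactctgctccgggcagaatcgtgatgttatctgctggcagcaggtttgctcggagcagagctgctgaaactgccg
Tgfbr2 promoter: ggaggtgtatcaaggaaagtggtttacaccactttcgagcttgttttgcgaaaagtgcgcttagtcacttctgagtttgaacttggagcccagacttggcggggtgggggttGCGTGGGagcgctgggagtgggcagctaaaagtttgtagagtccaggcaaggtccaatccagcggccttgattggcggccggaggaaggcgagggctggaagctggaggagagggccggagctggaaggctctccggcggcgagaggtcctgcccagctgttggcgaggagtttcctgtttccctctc
Both strands were searched for CAGACA (Smad), GGAATG (Tead), TGANTCA (AP-1), GCGTGGG (Egr) and TTCAAAG (Tcf/Lef). The Tgfb2 promoter held 1 match, CAGACA at -204 from the start site, a motif that 21% of 32851 promoters of the same length hold. The Tgfbr2 promoter held 1 match, GCGTGGG at -138, which 5.04% of the promoters hold. The Tgfb2 window was 54.3% GC with 10 CpG, and the Tgfbr2 window 59.0% GC with 15 CpG. Both motifs were also found in members not called in the reported model. The Tgfb1 promoter held GCGTGGG on the minus strand at -120, and a Tgfbr1 promoter held CAGACA at -203. The matches are descriptions of letters and were not tested against the changes.

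Tgfb2, which encodes a ligand that needs Tgfbr3 for high-affinity binding, was the member with the steepest fall. It was at 12.40, 10.86 and 4.79 TPM with DMSO, at 2.82, 1.98 and 1.13 TPM with AA, at 4.23, 2.83 and 2.80 TPM with 2i, and at 1.37, 1.12 and 0.75 TPM with AA+2i. No treated library reached the lowest DMSO library, and within each letter the order was DMSO, 2i, AA and AA+2i from high to low. The DMSO libraries themselves spread widely, so the mean of 9.35 TPM has an SD of 4.0, against 1.98 ± 0.85 with AA, 3.29 ± 0.82 under 2i and 1.08 ± 0.31 under AA+2i (n = 3 each).

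With AA, Tgfb2 fell 4.66-fold (log2 fold change -2.22, SE 0.39, edgeR adjusted p = 0.0196). This call did not hold in every fit with 1 library left out. Such fits called 56 to 156 of all genes with AA, against 179 in the reported fit. Without DMSO A the change was -1.89 (adjusted p = 0.0596), without DMSO B -2.19 (0.0736), without AA B -2.24 (0.0963) and without AA C -1.96 (0.0874), none of which passed in edgeR. Without DMSO C or AA A it was -2.51 in both cases, and the call held. The direction held in all 6, and with the GC correction the change was -2.15 (adjusted p = 0.0018). The call was also lost in a model of only the AA and DMSO libraries (adjusted p = 0.225), in which edgeR called 0 of all genes.

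With AA+2i, Tgfb2 fell 7.56-fold (-2.92, SE 0.41, edgeR adjusted p = 0.00171), and this call held whichever library was left out, at -3.21 to -2.59. With 2i alone its log2 fold change was -1.32 (SE 0.38), which did not pass in edgeR (adjusted p = 0.0849). It passed with DESeq2 (adjusted p = 0.016), with the GC correction (-1.18, 0.0182) and without DMSO C (-1.61, 0.0381), and without DMSO A it was -0.99 (0.253). Between AA+2i and 2i the groups did not overlap and the log2 fold change was -1.60 (SE 0.39, adjusted p = 0.0983 in edgeR), which passed with DESeq2 (0.00588) and with the GC correction (0.0146). AA+2i and AA overlapped, at -0.70 (SE 0.39, adjusted p = 0.417 in edgeR).

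The interaction, which sets the joint change against the sum of the changes from either agent alone, was 0.62 for Tgfb2 (SE 0.54, adjusted p = 1 in edgeR). In edgeR 0 members passed the interaction test, beside 0.0149% of all genes, and 0 members had an unadjusted p under 0.05. DESeq2, limma and the other alternatives called 0 members as well. The standard errors of the 9 interactions ran from 0.22 (Tgfbr2) to 0.76 (Tgfb1), so differences from additivity of this order could not be seen.

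Tgfb1, which encodes the ligand most often described in connective tissue and immune cells, was at 2.11, 5.22 and 4.96 TPM with DMSO and overlapped with DMSO in every treatment. Its means were 3.38 ± 0.94 with AA, 2.44 ± 1.7 under 2i and 3.31 ± 1.1 under AA+2i (TPM, n = 3). The log2 fold changes of Tgfb1 were -0.23, -0.52 and -0.06, each with an SE of 0.54 and no adjusted p below 0.653 in edgeR. With the GC correction they were -0.43, -1.10 (adjusted p = 0.062) and -0.83 (0.108), and with the correction and the replicate block the changes with 2i (-1.11, 0.0155) and AA+2i (-0.84, 0.0321) passed in edgeR. With the GC curve of each library taken out, Tgfb1 was at 5.49, 4.27 and 5.24 TPM with DMSO, at 1.61, 1.51 and 2.82 TPM with 2i and at 2.63, 2.22 and 2.33 TPM with AA+2i. On that scale the libraries with 2i did not overlap with DMSO, whereas AA, at 5.72, 2.61 and 3.03 TPM, did. It lies at chr7:26472021-26490096 on the plus strand.

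Tgfb3, a ligand known from palate and heart development (chr12:87397694-87419991, minus strand), was low, with counts of 17 to 107. It was at 0.61, 1.42 and 0.88 TPM with DMSO and at 1.5, 1.64 and 1.93 TPM with AA+2i. These groups did not overlap, with AA+2i the higher, though without the GC curve the highest DMSO and the lowest AA+2i library were both at 1.43 TPM. The log2 fold change of 1.04 (SE 0.40) did not pass in edgeR (adjusted p = 0.142) and was called with the replicate block. With AA and 2i alone the groups overlapped with DMSO, at 0.24 and 0.44.

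The make-up of the ligand transcripts follows from these values. The TPM of the 3 ligand genes summed to 15.1, 17.5 and 10.6 with DMSO, to between 6.12 and 7.0 with AA, to between 5.48 and 8.86 with 2i and to between 4.95 and 6.97 with AA+2i. No treated library reached the lowest DMSO sum. Tgfb2 made up 82.0, 62.1 and 45.1% of the ligand TPM with DMSO, and 21.7, 22.6 and 10.8% with AA+2i. With AA its share was 46.1, 31.7 and 16.1%, which overlapped with DMSO, and so did its share with 2i at 67.7, 51.6 and 31.6%. Tgfb1 was the leading ligand transcript in DMSO C, AA B, AA C and 2i C and in all 3 AA+2i libraries, and Tgfb3 took 28.2 ± 4.7% with AA+2i against 6.81 ± 2.4% with DMSO (SD, n = 3). These shares set Tgfb1 against Tgfb2, whose GC contents differ. With the GC curves taken out, Tgfb2 made up 60.4, 66.8 and 43.3% with DMSO, 25.5, 36.5 and 22.4% with AA, 60.8, 54.2 and 42.0% under 2i and 26.4, 22.4 and 18.4% under AA+2i. On that scale AA no longer overlapped with DMSO, and the share in AA+2i C was over 1.5 times that before. The leading ligand transcript turned to Tgfb1 in AA A, at 64.7%, and to Tgfb2 in 2i C, at 42.0% against 37.9% for Tgfb1. The sums without the curves were 10.8 to 17.2 with DMSO and 4.93 to 8.85 in the treated libraries. Shares and sums were not tested. In bulk RNA, fewer cells that make a transcript and less of it per cell cannot be told apart, here and in the results that follow.

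**Figure D3:**
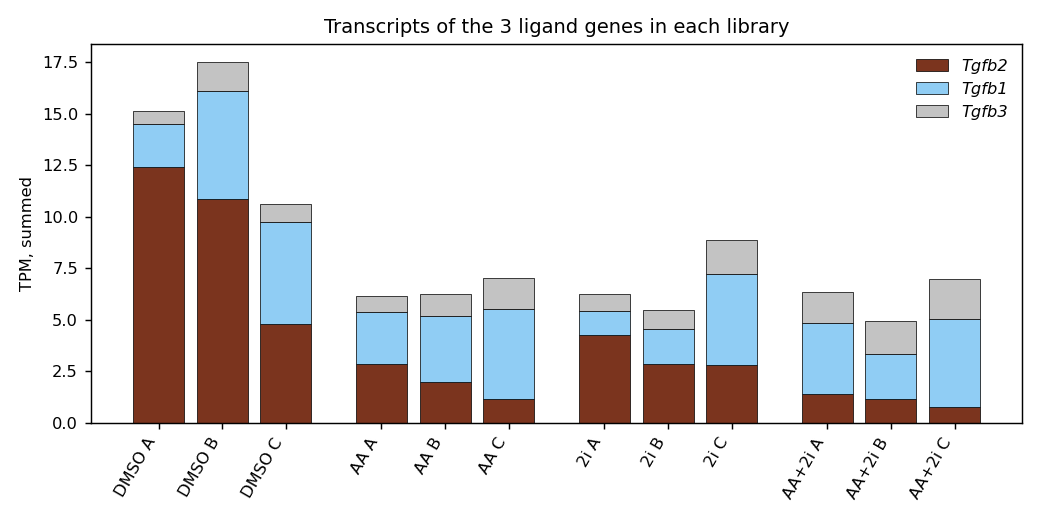
Stacked bars give the TPM of Tgfb2, Tgfb1 and Tgfb3 in each library, on an axis from 0. The Tgfb2 part is between 4.79 and 12.40 TPM in the DMSO libraries and between 0.75 and 1.37 in the AA+2i libraries, while the Tgfb1 part overlaps between all 4 conditions in these TPM, which are not corrected for GC; with the GC curves taken out it does not overlap between DMSO and either condition with 2i.

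Tgfbr2, the type II receptor to which the ligand binds first, was the 1 member called with 2i in the reported fit. It was at 41.45, 47.36 and 37.78 TPM with DMSO and at 41.14, 33.16 and 31.60 TPM with AA. With 2i it was at 17.82, 14.21 and 15.34 TPM, and with AA+2i at 16.24, 13.54 and 11.51 TPM. The libraries with 2i lay well below all libraries without it, and each of the pairs DMSO and AA, and 2i and AA+2i, overlapped.

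Tgfbr2 fell 2.34-fold with 2i (-1.23, SE 0.16, edgeR adjusted p = 0.00202) and 2.67-fold with AA+2i (-1.42, SE 0.16, adjusted p = 0.000591). Against AA, AA+2i lowered it 2.27-fold (-1.18, SE 0.16, adjusted p = 0.00176), and it was the only one of the 9 members called in that comparison, beside 6.1% of all genes, 2.81% called higher and 3.29% called lower. With AA alone the log2 fold change was -0.23 (SE 0.16, adjusted p = 0.836), and between AA+2i and 2i it was -0.19 (SE 0.16, adjusted p = 0.969). The interaction was 0.04 (SE 0.22). These 3 calls held under every alternative tried and whichever library was left out. Without DMSO A, the change with 2i was -1.20 and with AA+2i -1.39.

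Levels of the marker lists are given beside these changes. The summed TPM of the 12 fibroblast or feeder markers was 8.0 to 17.0 with DMSO, 11.6 to 21.2 with AA, 6.44 to 6.86 with 2i and 7.95 to 11 with AA+2i. Thy1 made up most of the highest sums, at up to 15.99 TPM. Of the 9 of these markers that were tested, 1 fell with 2i (Fbln5, -1.92), and with AA+2i Fbln5 fell (-2.92) and Col3a1 rose (2.25). Lum was at 0 and Twist2 did not exceed 0.03 TPM in any library. The summed TPM of the 5 endothelial markers, most of it from Tek, was 9.73 to 16.2 with DMSO, 6.38 to 12 with AA, 7.69 to 10.5 with 2i and 3.66 to 7.61 with AA+2i. Of the 3 of these tested, Cdh5 rose with 2i (4.97) and AA+2i (4.01) and Kdr fell with AA+2i (-2.72), while Emcn was at 0 in every library. Of the 10 pre-iPSC and pluripotent markers, 3 rose with AA (Cdh1, Nanog and Zfp42), 5 with AA+2i (these and Epcam and Esrrb) and none with 2i by edgeR, where 2 had an unadjusted p under 0.05, beside 16.1% of all genes. The part of these markers in the changes of Tgfb2 and Tgfbr2 was not tested.

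**Figure D4:**
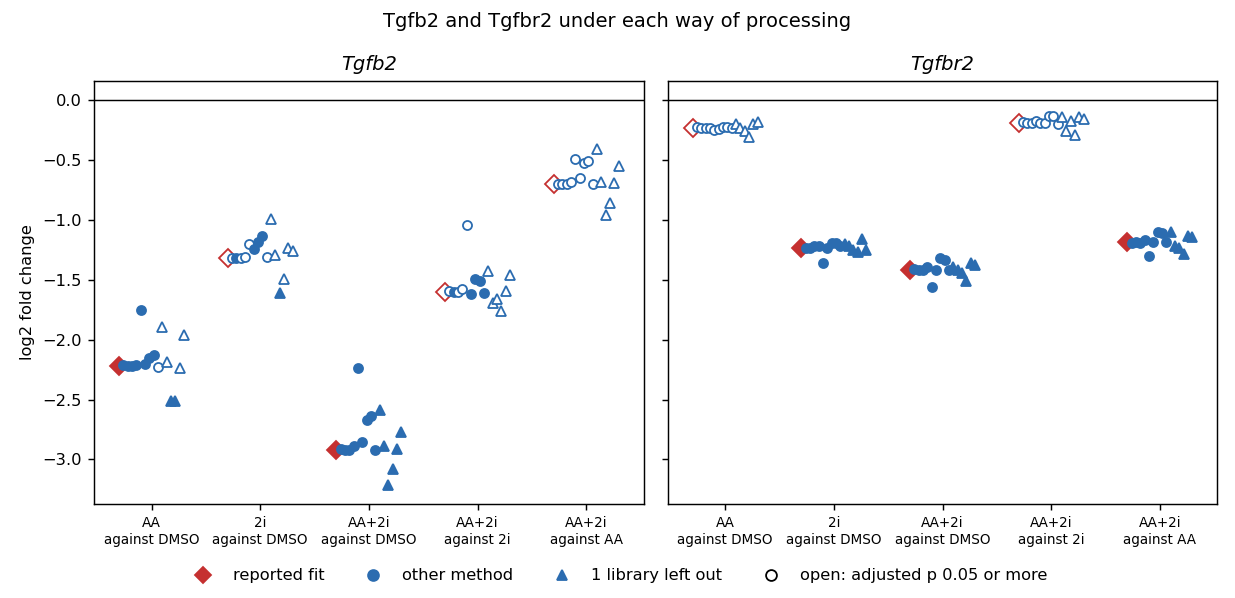
Each point is the log2 fold change of Tgfb2 or Tgfbr2 in a comparison as reported (diamond), by another method (circle) or with 1 library left out (triangle), and open points have an adjusted p of 0.05 or more. The filled triangles of Tgfb2 with AA are those without DMSO C and without AA A, whereas every point of Tgfbr2 with 2i, with AA+2i and between AA+2i and AA is filled.

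Tgfbr1, the type I receptor kinase (chr4:47366094-47427803, plus strand), overlapped with DMSO in every treatment. It was at 13.63, 8.89 and 6.97 TPM with DMSO and at 7.03, 7.81 and 4.11 TPM with AA+2i. Its log2 fold changes were -0.17 with AA, -0.17 under 2i and -0.47 under AA+2i, each with an SE of 0.40, and none passed in edgeR. The ratio of Tgfbr2 to Tgfbr1 TPM was 3.04, 5.33 and 5.42 with DMSO and 2.83, 5.79 and 5.26 with AA. With 2i it was 1.63, 1.97 and 2.82 and with AA+2i it was 2.31, 1.73 and 2.80, so the highest ratio with 2i, 2.82, lay just below the lowest with AA, 2.83. With the GC curves taken out the ratio was 3.79 to 5.48 without 2i and 1.72 to 2.40 with it. The ratio was not tested.

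Tgfbr3, or betaglycan, a co-receptor that presents Tgfb2 to Tgfbr2 (chr5:107535589-107718648, minus strand), was near the limit of detection with counts of 7 to 62. It was at 0.74, 0.32 and 0.14 TPM with DMSO and between 0.16 and 0.82 TPM in the treated libraries. Its log2 fold changes were -0.08 with AA, 0.73 with 2i (SE 0.52) and -0.59 with AA+2i (SE 0.54). It was lower in all AA+2i libraries than in any 2i library, at -1.32 (SE 0.53, unadjusted p = 0.0297), and did not pass after adjustment over all genes in edgeR (adjusted p = 0.409).

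Thbs1, or thrombospondin 1, is a matrix protein that is both a target of the pathway and an activator of latent TGF-beta (chr2:117937612-117952869, plus strand). It was at 7.32, 14.93 and 14.58 TPM with DMSO, at 3.51, 3.07 and 7.13 TPM with AA, at 11.43, 9.29 and 15.06 TPM with 2i and at 5.60, 4.62 and 4.78 TPM with AA+2i. The libraries with AA thus lay below all libraries without it, though AA C and DMSO A were close, at 7.13 and 7.32 TPM, and with the GC curves taken out their order turned, at 7.43 and 6.69. The log2 fold change was -1.37 with AA (SE 0.38, edgeR adjusted p = 0.145), -1.08 with AA+2i (SE 0.38, 0.112) and 0.17 with 2i (SE 0.37, 0.821), so none passed in edgeR. DESeq2 called the change with AA (-1.38, adjusted p = 0.0225). The replicate block called it with AA (-1.44, 0.0175), with AA+2i (-1.03, 0.0182) and between AA+2i and 2i (-1.19, 0.0352). Without DMSO A the edgeR values were -1.62 (0.106) and -1.32 (0.0766). Between AA+2i and 2i the change was -1.24 (SE 0.38, adjusted p = 0.196).

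Ctgf, also called Ccn2 (chr10:24315248-24318489, plus strand), was at 118.05, 172.07 and 161.63 TPM with DMSO, at 83.26, 63.59 and 125.59 TPM with AA, at 82.62, 74.70 and 107.32 TPM with 2i and at 80.86, 93.23 and 147.13 TPM with AA+2i. The 2i libraries lay below all DMSO libraries and the other treatments overlapped with them. The log2 fold changes were -0.69, -0.57 and -0.24 with AA, 2i and AA+2i, each with an SE of 0.34, and the lowest adjusted p was 0.462 in edgeR. The replicate block called the change with AA, and with the GC curves taken out the AA libraries, at 61.0 to 122 TPM, lay below the lowest DMSO library, at 128.

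Smad7, the inhibitory Smad that the pathway induces as a brake, lies on chromosome 18 and was at 1.44, 2.06 and 2.31 TPM with DMSO and between 1.55 and 3.66 TPM in the treated libraries. Its means were 2.78 ± 0.84 with AA, 1.75 ± 0.24 under 2i and 2.15 ± 0.42 under AA+2i (TPM, n = 3), and every treatment overlapped with DMSO. The log2 fold changes were 0.56, 0.04 and 0.36, each with an SE of 0.31. With the GC correction the values with 2i and AA+2i were -0.56 and -0.57, so no direction can be given for Smad7 in these 2 treatments. With AA the value stayed positive but fell to 0.22 with the correction (SE 0.42), and it did not pass in edgeR.

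In the comparison of AA+2i with 2i, edgeR called 0 of the 9 members, beside 0.91% of all genes, and 3 members (Tgfb2, Tgfbr3 and Thbs1) had an unadjusted p under 0.05, beside 9.53% of all genes. DESeq2 called 1 member, beside 3.49% of all genes, and limma called 0.

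A list of 51 other genes of the pathway was read alongside, of which 48 were tested. Of these, 1 rose and 1 fell with AA, 2 fell with 2i, and 1 rose and 4 fell with AA+2i, while 0 were called by edgeR between AA+2i and 2i, where 1 had an unadjusted p under 0.05, beside the 9.53% of all genes. The median log2 fold changes of the 48 were -0.09, -0.16 and -0.20 with AA, 2i and AA+2i. The called numbers, 2 of 48 with AA, 2 of 48 under 2i and 5 of 48 under AA+2i, are to be read against the 1.34, 4.42 and 8.34% of all genes.

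Among the 12 genes of latency and activation, 9 were tested. Ltbp1, which anchors latent TGF-beta in the matrix, was at 68.61, 117.29 and 52.30 TPM with DMSO, and fell 3.37-fold with 2i (-1.75, SE 0.35, edgeR adjusted p = 0.0186) and 4.72-fold with AA+2i (-2.24, SE 0.36, 0.00379). All its 2i libraries, at 12.06 to 27.45 TPM, and AA+2i libraries, at 7.67 to 18.78 TPM, lay below DMSO. Fbn2, a microfibril protein, fell with AA (-2.89, SE 0.57, adjusted p = 0.0363) from a level of no more than 0.60 TPM in any library, with counts down to 1.

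Among the 9 co-receptors and receptor regulators, none was called with AA or 2i by edgeR, and 0 and 3 had an unadjusted p under 0.05, beside 9.43 and 16.1% of all genes. With AA+2i, Bambi rose 2.91-fold (1.54, SE 0.34, adjusted p = 0.0182), from 4.49 ± 1.3 to 11.2 ± 2.2 TPM (SD, n = 3). Bambi encodes a pseudoreceptor without a kinase domain that dampens signalling. Cd109, a membrane-anchored binding protein for TGF-beta, fell 3.45-fold with AA+2i (-1.79, SE 0.44, adjusted p = 0.0311). Its level was high, at 630.20, 660.60 and 274.43 TPM with DMSO and 164.40, 161.55 and 71.40 TPM with AA+2i.

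Among the 14 Smads, ubiquitin ligases and nuclear partners, Nedd4l, a ligase that acts on activated Smads, fell with 2i (-0.78, SE 0.18, edgeR adjusted p = 0.0316) and with AA+2i (-0.86, SE 0.18, 0.0121). Smad3, which carries the signal to the nucleus, fell 1.87-fold with AA+2i (-0.90, SE 0.20, adjusted p = 0.0186), from 19.93, 19.68 and 17.40 TPM to 9.82, 10.18 and 6.70 TPM. With AA and 2i alone Smad3 was at -0.23 and -0.27, and neither passed. The other members of this group were not called in any treatment.

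Among the 16 other targets, Tgfbi, a secreted matrix protein named for its induction by TGF-beta, rose 3.87-fold with AA (1.95, SE 0.34, edgeR adjusted p = 0.0175). It was at 4.11, 8.20 and 8.98 TPM with DMSO, at 20.73, 21.56 and 37.52 TPM with AA, at 2.58, 2.51 and 2.68 TPM with 2i and at 4.85, 4.56 and 3.05 TPM with AA+2i. Against AA, AA+2i lowered Tgfbi 5.76-fold (-2.53, SE 0.35, adjusted p = 0.00182). Its interaction was -1.27 (SE 0.47, unadjusted p = 0.0202) and did not pass after adjustment over all genes (adjusted p = 1). The other 15 targets were not called in any of the 3 treatments.

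**Figure D5:**
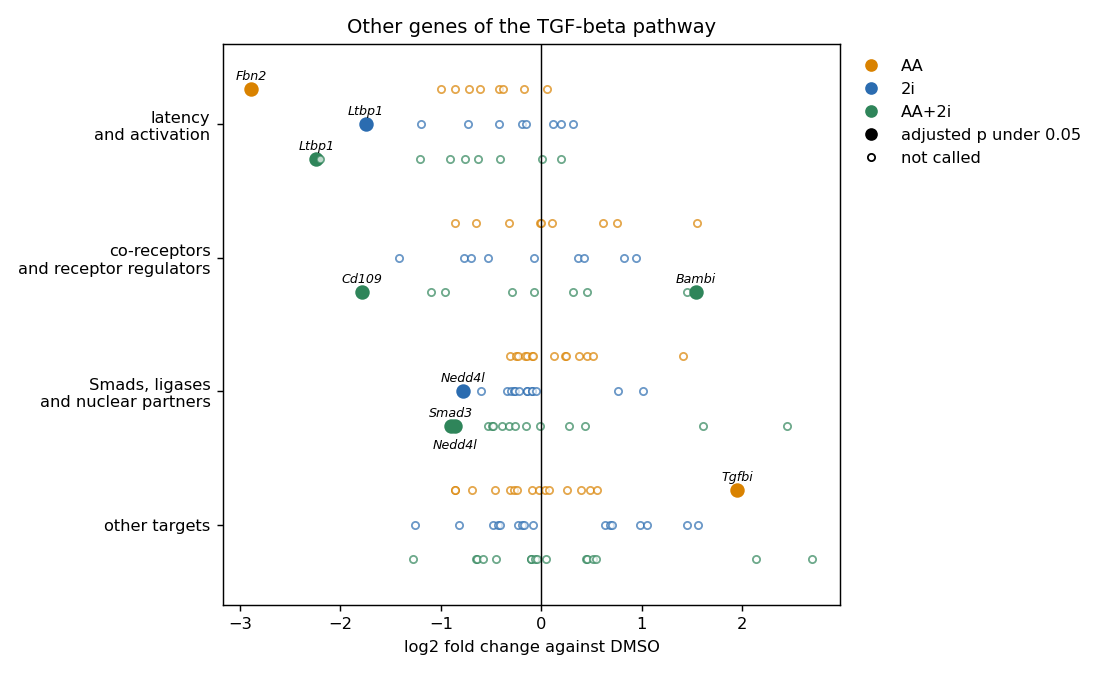
Log2 fold changes against DMSO of the 48 other pathway genes tested are plotted by role for AA, 2i and AA+2i, and genes with an adjusted p under 0.05 are filled and named. Ltbp1 (-1.75 with 2i, -2.24 with AA+2i) and Nedd4l (-0.78, -0.86) are named in both treatments that hold 2i.

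The 12 libraries were also searched for the genes whose pattern was most like that of the members that fell, by Pearson's r of log2(TPM + 1) among 11747 genes with a mean of at least 1 TPM. For Tgfb2 these were Gprin3 (r = 0.972), Foxc1 (0.963) and 1810012P15Rik (0.959). For Tgfbr2 they were Nedd4l (r = 0.986), Lamb1 (0.981) and Tspan2 (0.981). Lamb1, a laminin chain, was at a mean of 63.9 TPM with DMSO, 41.9 with AA, 8.41 under 2i and 5.96 under AA+2i. The r of Tgfb2 with Tgfbr2 was 0.64. All of these share the same 12 libraries, their depth and their base composition, and they are descriptions.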

How the data were processed

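RNA was sequenced from pre-iPSCs of 4 conditions with 3 libraries each. Per the study's methods, reads were trimmed, clipped of adapters and filtered on quality by the authors before alignment to RefSeq genes of mm9 and quantification with RSEM. The submitters' processing notes name Bowtie and RSEM 1.2.4. The authors deposited, for each library and gene, the expected count, which RSEM estimates and which is not normalized, and TPM and FPKM, which are scaled to gene length and library. The deposited FPKM were used only to recompute 1 malformed TPM cell.

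The tests used edgeR 4.0.16 (R 4.3.3) on expected counts rounded to whole numbers, in 1 model of the 4 conditions with RLE factors and 8 residual degrees of freedom. A gene entered with 10 or more counts in 3 or more libraries, p-values were adjusted over all 13400 genes tested, and an adjusted p under 0.05 was called. SEs are the log2 fold change over the square root of the F statistic. The smallest number of genes that differed in count between any 2 libraries was 14945, so none was a copy. Replicates are biological per the labels, and p-values measure the spread between these samples of 1 line.

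Alternatives were TMM factors, DESeq2 1.42.0, no count filter, limma 3.58.1 on log2(TPM + 1), 10 counts in every library, the replicate letter as a block, a GC correction (loess, span 0.4, of log2 CPM with a prior count of 2; GC known for 13291 genes), both together, only the 2 groups compared, and each library left out. TPM with the fitted GC curves taken out were added after seeing the data. On simulated counts for 2i against DMSO (13204 to 13222 genes, 200 changed, 3 draws) the test found 70.5% of log2 changes of 2 and 9.11% of changes of 1, with 5.22% false calls.

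All 9 members were named. Of the other pathway genes, those called with the 3 largest rises and falls in each treatment were named by rule, and Nedd4l with AA+2i besides, since it had been named with 2i. Marker genes were named after their values were seen. Members and lists were chosen with earlier results of these data known. Positions are from the GENCODE vM1 annotation of NCBIM37 (mm9). RefSeq promoters matched for 4 of the 9 members, and no protein sequence was used here.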

Additional observations from a re-analysis of the deposited data

How the results depend on the processing

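Tgfbr2 kept its direction and its calls with 2i, with AA+2i and between AA+2i and AA under all alternatives, and Tgfb2 its fall with AA+2i. Of the values of single members under alternatives other than leaving out a library, 429 kept their direction and side of the threshold, 24 passed it newly, 1 no longer passed (Tgfb2 with AA, in the model of 2 groups) and 17 changed sign, none of them called in the reported model. The libraries limit what could be seen. In the simulation, with changed genes drawn at random from all tested, most changes of 1 on the log2 scale were missed. It held no GC dependence and does not give the share that would be found for a single member. Tgfb3 and Tgfbr3 had few counts. The values of Tgfb1, Smad7 and Tgfbr1 depended strongly on GC. The causes of the changes in calls were not tested.

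The number of members called was 1 with AA, 1 with 2i, 2 with AA+2i, 0 between AA+2i and 2i, and 1 between AA+2i and AA. DESeq2 called 2 with AA (Tgfb2 and Thbs1), 2 with 2i (Tgfb2 and Tgfbr2) and 1 between AA+2i and 2i (Tgfb2). In these comparisons it called 3.39, 8.2 and 3.49% of all genes. The GC correction called 2 with 2i and 1 between AA+2i and 2i, in both cases by adding Tgfb2, beside 11.6 and 4.43% of all genes. A model of only the 2 groups called 0 with AA, where it called 0 of all genes, and 1 between AA+2i and 2i (Tgfb2). With 1 library left out, the number ran from 0 to 1 with AA, from 1 to 2 with 2i (2 without DMSO C), from 2 to 2 with AA+2i, from 0 to 0 between AA+2i and 2i and from 1 to 1 between AA+2i and AA. Over all genes these fits called 56 to 156, 249 to 454, 534 to 985, 33 to 58 and 409 to 660, respectively.

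The labels do not say whether the letters A, B and C pair the libraries, so the replicate block was used only as an alternative. Of 18 same-letter pairs of libraries from different conditions, 15 correlated above 0.1 in their deviations from the group means (mean r 0.401, from -0.588 to 0.894). Most libraries of the same letter thus deviated alike, which the reported model does not take into account. The model with the replicate block called 3 members with AA (Ctgf, Tgfb2 and Thbs1), 2 with 2i (Tgfb2 and Tgfbr2), 4 with AA+2i (Tgfb2, Tgfb3, Tgfbr2 and Thbs1) and 2 between AA+2i and 2i (Tgfb2 and Thbs1), where the same model called 4.43, 13.3, 31.6 and 4.52% of all genes. With the replicate block and the GC correction together it called 3, 4 (Ctgf, Tgfb1, Tgfb2 and Tgfbr2), 5 (Tgfb1, Tgfb2, Tgfb3, Tgfbr2 and Thbs1) and 2 in these comparisons, and 2 between AA+2i and AA, beside 10.9, 24.8, 36.4, 11.2 and 27.7% of all genes. No alternative called a member in the interaction.

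The values that changed sign with the GC correction were those of Tgfbr3 with AA (0.06), Smad7 with 2i (-0.56), with AA+2i (-0.57) and between AA+2i and 2i (-0.01), Tgfbr1 with 2i (0.13) and between AA+2i and AA (0.02), and Tgfb1 between AA+2i and AA (-0.40). With the block added these were 0.16 for Tgfbr3, -0.52 and -0.51 for Smad7 with 2i and AA+2i, 0.13 and 0.03 for Tgfbr1 and -0.38 for Tgfb1. The block alone gave 0.13 for Tgfbr3 with AA. In limma, Smad7 (-0.09) and Thbs1 (-0.00) with 2i and Tgfb1 between AA+2i and AA (-0.03) changed sign. Without further scaling, TPM put the median of all genes at -0.13 with 2i, -0.15 with AA+2i and -0.14 between AA+2i and AA, so limma's values are relative to that shift.

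With 1 library left out, values that changed sign ran, with AA, from -0.04 to 0.51 for Tgfb3, from -0.69 to 0.20 for Tgfbr1 and from -0.46 to 0.74 for Tgfbr3. With 2i they ran from -0.42 to 0.20 for Tgfbr1, from -0.12 to 0.25 for Smad7 and from -0.09 to 0.38 for Thbs1, and with AA+2i from -0.40 to 0.20 for Tgfb1 and from -0.97 to 0.22 for Tgfbr3. Between AA+2i and 2i Ctgf ran from -0.10 to 0.55. Between AA+2i and AA the ranges were -0.17 to 0.44 for Tgfb1, -0.52 to 0.22 for Tgfbr1 and -0.42 to 0.08 for Smad7. In the interaction they were -0.50 to 0.39 for Tgfbr1, -0.06 to 0.12 for Tgfbr2, -0.46 to 0.03 for Smad7 and -0.09 to 0.65 for Thbs1.

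Over all genes, the number called was 179 with AA (0 to 1452 under alternatives other than leaving out a library), 592 with 2i (187 to 3291), 1117 with AA+2i (581 to 4835), 122 between AA+2i and 2i (74 to 1493), 817 between AA+2i and AA (435 to 3676) and 2 in the interaction (0 to 26).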
